A study of Mus musculus with 28 samples.

Results

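The siRNA that the labels call Nature, described there as a published cyclin D1 siRNA, was set against the mean of 4 other siRNAs that lower Ccnd1, the gene of cyclin D1, in the same cells. The comparison took 10 of the series' 28 RNA-seq libraries: 2 with Nature siRNA and 8 with siRNAs labelled FLAG, HA, Qiagen and Life. It used no library with the control siRNA labelled SCR. All 10 came from clones 12 and 14 of mouse embryonic fibroblasts of the C57BL/6x129Sv strain, transformed with RAS and DNP53. In both clones cyclin D1 carried a tag, named Ctag in the labels. Each siRNA gave 1 library per clone, after transfection with RNAiMAX overnight. FLAG and HA siRNAs are named after epitope tags, and Qiagen and Life siRNAs are labelled as cyclin D1 siRNAs, the latter from Life Technologies. The titles give an n of 3 or 4 per library without saying what it counts. Each clone is 1 cell line, and p-values rest on how far libraries lie from their fitted clone and siRNA levels. That spread takes in differences in siRNA response between the clones, but not differences in their general level. It says nothing of clones beyond those fitted.

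D-type cyclins bind the kinases CDK4 and CDK6, and the complexes phosphorylate the retinoblastoma protein, which frees E2F factors to transcribe genes of DNA replication. An siRNA is loaded into an Argonaute protein and directs cleavage of transcripts that pair with it along most of its length. Its guide strand can also lower other transcripts through short matches to its 5' end, the seed, mostly in 3' untranslated regions (3'UTRs), as microRNAs do. Several siRNAs against 1 gene are used side by side because each has its own set of such matches.

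The 10 libraries held 26558256 to 69442170 counts. The fibroblast markers summed to 11600 and 9683 CPM (the count of a gene relative to the library total, scaled by TMM factors) with Nature siRNA and to 9609 to 12310 with the others. Of 7 macrophage markers Emr1, Lyz2 and Tyrobp were at 0 in all 10 and 5 were below 1 CPM, with sums of 2.98 and 4.35 CPM with Nature siRNA and 3.47 to 4.56 with the others. Of 6 myogenic markers Myf5, Myod1 and Myog were at 0 and 5 below 1 CPM, with sums of at most 1.34 CPM. The sums were 8.79 and 2.04 CPM against 0.953 to 15.8 for endothelial markers (5 of 7 below 1 CPM), 37.7 and 86.7 against 27.7 to 115.2 for neural ones (Rbfox3 and Sox10 at 0), and 16.6 and 18.5 against 12.8 to 28.8 for adipocyte ones (Plin1 at 0). Epithelial markers differed between libraries, at 232.5 and 2158 CPM with Nature siRNA and 121.5 to 3696 with the others, and their part in the results was not tested. Rn45s, a precursor of ribosomal RNA, exceeded 2% of the counts in HA clone 12, Nature clone 14 and Life clone 14, at 2.22, 2.42 and 3.48%.

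Nature siRNA left the least Ccnd1 of the 5 siRNAs in both clones, but hardly less than Life. Ccnd1 (gene 12443, chr7:144929931-144939831) stood at 63.8 CPM in clone 12 and 50.1 in clone 14 with Nature siRNA. With Life siRNA it was at 73.7 and 52.5 CPM, with FLAG at 180.8 and 131.1, with HA at 222.2 and 219.2, and with Qiagen at 328.9 and 322.9. The same clones had 1128 and 1287 CPM with SCR siRNA and 1003 and 1469 without treatment. Nature was thus below each of the others in its own clone. The log2 difference from the mean of the other 4 was -1.52 (SE 0.20, edgeR quasi-likelihood adjusted p = 6.91e-05), at -1.47 and -1.57 in clones 12 and 14. Against single siRNAs it was -1.45 for FLAG (adjusted p = 0.000704), -1.95 for HA (adjusted p = 4.11e-05) and -2.51 for Qiagen (adjusted p = 1.44e-06). A difference from Life was not detectable (-0.15, adjusted p = 0.708).

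Ccnd2, the gene of cyclin D2, was low with Nature siRNA alone among the 5. It lies at chr6:127125162-127152188 (gene 12444). The loss of Ccnd2 was known from earlier results of these data and was named when the comparison was set. The p-values given for Ccnd2 are thus descriptive. In clone 12 it was at 45.7 CPM with Nature siRNA against 230.1 with FLAG, 173.4 with HA, 283 with Qiagen and 382.4 with Life. In clone 14, where its level was higher throughout, it was at 145 CPM against 623.7, 395, 617 and 699.9 in the same order. The Nature value lay below all 4 others in each clone. It also lay below SCR siRNA (233.7 and 611.2 CPM) and untreated cells (277.5 and 1059 CPM), whereas the other 4 siRNAs scattered around the SCR level. The log2 difference was -2.24 (SE 0.25, edgeR adjusted p = 9.34e-06), a 4.73-fold lower level, and -2.48 and -1.98 in clones 12 and 14. It passed against each single siRNA: -2.21 against FLAG (adjusted p = 5.84e-05), -1.69 against HA (adjusted p = 0.000704), -2.37 against Qiagen (adjusted p = 1.42e-05) and -2.70 against Life (adjusted p = 4.75e-06). When each other siRNA was set against its own 4 partners in the same way (with Nature now in the reference), none lowered Ccnd2 past the test, and the estimates ran from -0.13 for HA to 1.13 for Life. The call for Ccnd2 held whichever library was left out, from -2.36 to -2.13 with adjusted p of at most 0.00152.

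Ccnd3, the gene of cyclin D3 (gene 12445, chr17:47505051-47599689), did not set Nature siRNA apart from all others. With Nature siRNA it was at 138.5 and 114.9 CPM in clones 12 and 14. FLAG gave 95 and 121.1 CPM, HA 104 and 143.4, Qiagen 46.9 and 84, and Life 24.3 and 32.7. In clone 14 the FLAG and HA values lay above the Nature value. The difference from the mean of 4 was 0.89 (SE 0.16, edgeR adjusted p = 0.00111). It came from Qiagen (1.02, adjusted p = 0.00362) and Life (2.19, adjusted p = 3.46e-06), and was 0.26 against FLAG (adjusted p = 0.585) and 0.08 against HA (adjusted p = 0.965). The call ended without Nature clone 12 (0.53, adjusted p = 0.218). The partner kinases Cdk4 (0.14, adjusted p = 0.418) and Cdk6 (0.26, adjusted p = 0.623) were not called.

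**Figure D1:**
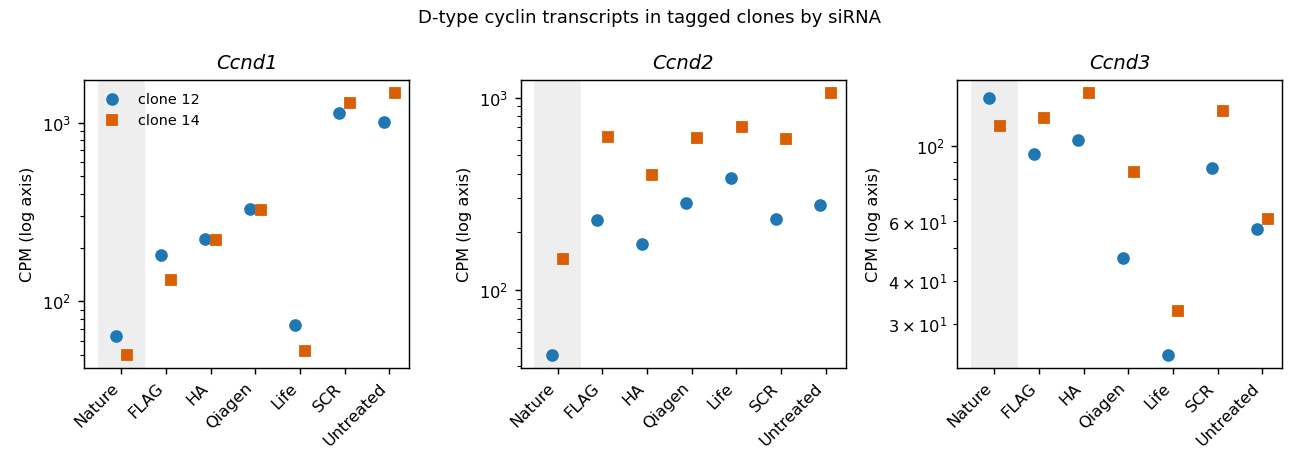
CPM of Ccnd1, Ccnd2 and Ccnd3 (log axes) by siRNA in tagged clones 12 (circles) and 14 (squares), with 1 library per point and the Nature libraries shaded. Ccnd2 with Nature siRNA sits at 45.7 and 145 CPM, below every other treatment of its clone, while Ccnd1 is close to the Life value.

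Across all genes, Nature siRNA differed from the mean of the other 4 at 1500 of 15099 genes tested (9.93%) at an edgeR adjusted p below 0.05. Of these, 670 were higher (4.44%) and 830 lower (5.5%). A mean of 4 can be moved by 1 siRNA with a strong effect of its own, so called genes were also counted where the Nature library lay beyond all 4 others in both clones. There were 1030 such genes (6.82%), 337 higher (2.23%) and 693 lower (4.59%). Most of the larger differences were decreases: 186 of these genes were at least 2-fold lower and 36 at least 2-fold higher. The sign was the same in both clones for 1492 of the 1500. The same comparison called 200 genes for FLAG (1.32%, 0.868% also beyond all 4), 734 for HA (4.86%, 3.29%), 2071 for Qiagen (13.7%, 10.6%) and 2145 for Life (14.2%, 11.3%), so the number of calls with Nature siRNA lay within the range of the 5. Without Nature clone 12, 423 genes were called (98 higher, 325 lower), and without Nature clone 14, 1860.

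The genes lowered most carried a common short sequence, shown here before their values because Ccnd2 and most of the named decreases hold it. All 16384 heptamers were ranked by how much more often they occurred in the 3'UTRs of the genes at least 2-fold lower than in those of all genes. GTTCATT came first. It was found after the values had been seen, so its excess in those genes is a description with no test. Each line gives the match in capitals with 11 bases on either side, 5' to 3' on the transcript strand, from GENCODE vM21 on GRCm38 (mm10). The first lies in the coding sequence of the target itself and crosses an exon junction (chr7:144937294-144937297 and chr7:144934140-144934164, minus strand). The next 3 lie in the 3'UTR of Ccnd2 (chr6:127129587-127129615, chr6:127129215-127129243 and chr6:127125596-127125624, minus strand). The others lie in the 3'UTRs of Mapk6 (chr9:75387387-75387415, minus strand), Ereg (chr5:91090386-91090414, plus strand), Nipsnap3b (chr4:53021435-53021463, plus strand), Agps (chr2:75928121-75928149, plus strand) and Tmem135 (chr7:89141488-89141516, minus strand).
Ccnd1 coding: acagatgtgaaGTTCATTtccaacccacc
Ccnd2 match 1: ttccaaacatgGTTCATTgtagatgtatt
Ccnd2 match 2: gtccagttactGTTCATTtctggagtctg
Ccnd2 match 3: tccatgttgttGTTCATTatccttctgcc
Mapk6: catgtcctggtGTTCATTctttatagtga
Ereg: aaagcttcaaaGTTCATTaagctgatgca
Nipsnap3b: ggagtcgcccaGTTCATTgtctgaaggac
Agps: aacacatgaatGTTCATTagtagtagttc
Tmem135: agatatctttaGTTCATTccaatagaatt
Ccnd3 holds no match in its coding sequence or 3'UTR. The sources used here do not give the sequence of the Nature siRNA, and whether its guide strand pairs with these bases was not tested. None of the 1679 mature mouse miRNAs in the RefSeq table has the complement, AAUGAAC, at bases 2 to 8. Ccnd1 and Ccnd2 are also related in their coding sequences, where the longest identical run is 20 bases:
Ccnd1 and Ccnd2: ttcaagtgcgtgcagaagga
It starts at coding base 133 of Ccnd1 and 127 of Ccnd2. The longest run shared by Ccnd1 and Ccnd3 is 17 bases. Whether the siRNA covers any of them was not tested.

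Of the genes called, beyond all 4 and at least 2-fold lower, 170 had an annotated 3'UTR, and 128 of them (75.3%) held GTTCATT there. Among all 13289 genes with a 3'UTR of at least 7 bases the share was 11.9%. With the 3'UTR of any coding transcript of a gene counted, the shares were 84.1 and 14%. The lowered genes had longer 3'UTRs, with a median of 2245.5 bases against 977. Within the first 1000 bases of 3'UTRs that reach that length, the shares were 50.4% of 125 genes and 8.51% of 6525. The coding sequences held it in 15.9 and 7.38%, and the reverse complement AATGAAC occurred in the 3'UTRs of 20.6 and 9.66%. The genes lowered by less than 2-fold, which the ranking did not use, held it in 53.2% of 485, and the genes that were higher and beyond all 4 in 3.82% of 288. Among genes at least 2-fold lower with another siRNA, by the same rules, the share was 0 of 17 for FLAG, 14.9% of 47 for HA, 2.05% of 146 for Qiagen and 5.6% of 125 for Life.

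**Figure D2:**
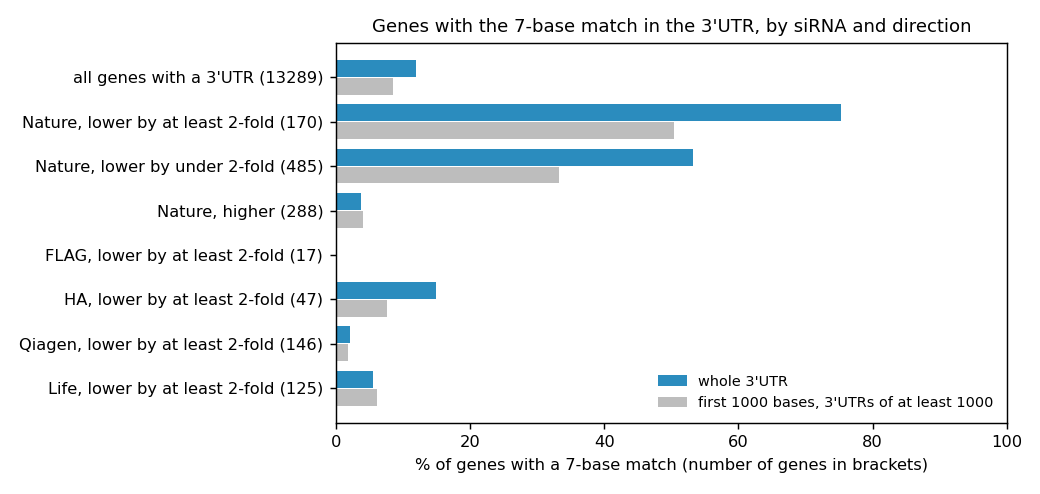
Share of genes (%) with the 7-base match in the whole 3'UTR (blue) or in the first 1000 bases of 3'UTRs at least that long (grey), by siRNA and direction. The bars give the whole set of genes in brackets: 75.3% of the genes at least 2-fold lower with Nature siRNA hold it, against 11.9% of all genes and 0 to 14.9% with the other siRNAs.

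The levels were also listed by the number of matches, over genes that include those used to rank the heptamer, so this is no independent evidence. The 11709 genes with no match in the 3'UTR had a median log2 difference of 0.05, and 2.95% of them were called lower. With 1 match the median was -0.31 over 1322 genes and 26.6% were called lower. With 2 it was -0.48 over 217 genes (32.7% called lower), and with 3 or more -0.57 over 41 genes (43.9%). The order held in clone 12, at 0.06, -0.38, -0.63 and -0.96. In clone 14 the medians were smaller, at 0.00, -0.20, -0.16 and -0.35, and those for 1 and 2 matches changed places. The share called lower among genes with a match was 30.4, 29.5 and 27.2% when genes were split into 3 equal parts from short to long 3'UTRs, against 2.07, 2.5 and 4.64% of genes without one. Most genes with a match were not called: 441 of 1580 were lower and 23 higher. Leaving out the genes at least 2-fold lower that had ranked the heptamer, a choice made after seeing the data, 21.6% of 1452 genes with a match were called lower against 2.6% of 11667 without one. The medians for 0, 1, 2 and 3 or more matches were then 0.05, -0.28, -0.36 and -0.14, and 30 genes had 3 or more. The shares called lower were 2.6, 21.5, 21.9 and 23.3% in the same order. Because genes were left out by the size of their decrease, these values cannot decide whether an order by the number of matches exists.

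**Figure D3:**
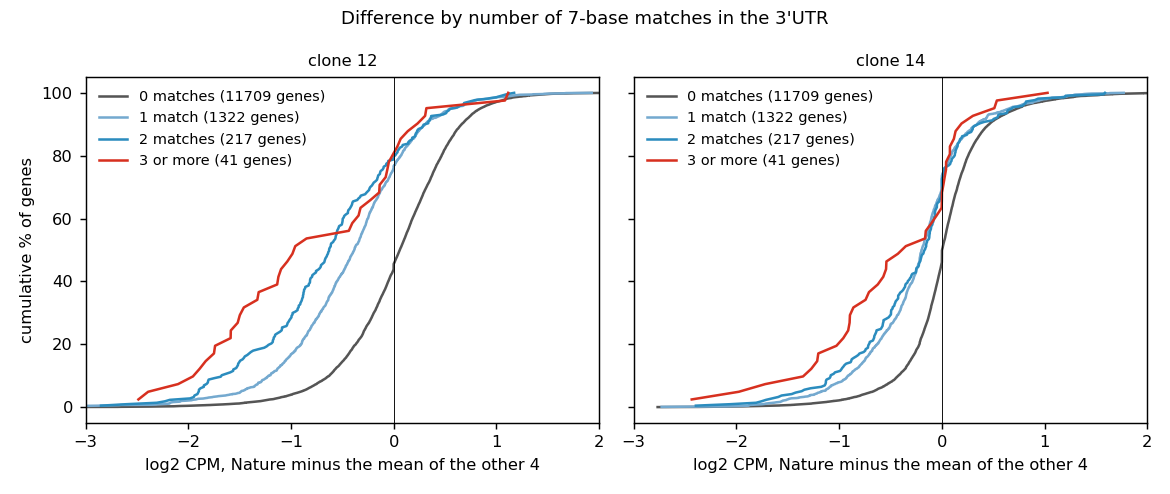
Cumulative share of genes (%) by log2 CPM difference, Nature minus the mean of the other 4, for genes with 0, 1, 2 or at least 3 matches in the 3'UTR, in clone 12 (left) and clone 14 (right); the axis is limited to -3 to 2. The curves of genes with matches lie to the left of the curve of the 11709 genes without one, farther in clone 12 than in clone 14; they include the genes that ranked the heptamer.

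The 12 largest decreases among called genes beyond all 4 others with a mean of at least 1 CPM were those of Ccnd2, Hmga1, Mapk6, Eif5a2, Nipsnap3b, Ereg, Fam114a2, Papss2, Agps, Impad1, Atp13a3 and Tmem135. Of the 12, 10 held the heptamer in the 3'UTR, with 3 copies in Ccnd2, Nipsnap3b and Atp13a3. All 12 were among the genes that ranked the heptamer, so this count is no further evidence. Of the ranking genes 75.3% held it, and of all genes 11.9%. Hmga1 and Fam114a2 held none in the transcripts used, whose 3'UTRs were of 111 and 226 bases. Mapk6 encodes ERK3, an atypical MAP kinase. It was at 65.2 and 43.8 CPM with Nature siRNA in clones 12 and 14, against 408.9 to 634.4 and 192.5 to 387.6 with the other 4. The groups were far apart in both clones (log2 difference -2.81, SE 0.17, edgeR adjusted p = 9.09e-09), and SCR siRNA gave 477.4 and 312.6 CPM. Ereg encodes epiregulin, a ligand of the EGF receptor family. It was at 29.6 and 100.1 CPM against 103.6 to 139.1 and 364.3 to 674.4 (-2.25, SE 0.25, adjusted p = 1.23e-05). Both genes belong to growth factor and MAP kinase signalling, and both stood below the SCR and untreated levels of their clone.

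Agps and Impad1 encode enzymes, of ether lipid synthesis in peroxisomes and of phosphoadenosine phosphate breakdown in the Golgi. Agps was at 40.1 and 46.8 CPM against 153.1 to 225.6 and 174.7 to 192.6 (-2.08, SE 0.14, edgeR adjusted p = 1.86e-08). Impad1 was at 17.5 and 28.4 CPM against 85.4 to 151 and 78.7 to 88.2 (-2.06, SE 0.27, adjusted p = 6.77e-05). The groups did not overlap within a clone for either gene, which was a condition for being listed. Atp13a3, a P5-type transport ATPase, was at 38.6 and 59.1 CPM against 151 to 254.6 and 173.6 to 219.9 (-2.05, SE 0.19, adjusted p = 1.61e-06). Nipsnap3b (-2.26, SE 0.15, adjusted p = 1.69e-08) and Tmem135 (-1.99, SE 0.12, adjusted p = 9.09e-09) were expressed at lower levels, 3.73 and 4.68 CPM against 14.6 to 30 for the first and 6.23 and 6.83 against 20.7 to 30.9 for the second. Lying below all 4 others in both clones was a condition of the choice for every gene of this list.

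The remaining 4 come with limits. Hmga1, which encodes an architectural chromatin protein, had the largest estimate (-3.05, SE 0.50, edgeR adjusted p = 0.000569), from 0.57 and 1.24 CPM against 3.74 to 11.6. It has near-identical copies in the genome among which reads can be split, and its call ended without Nature clone 12 (adjusted p = 0.0631). Eif5a2, a translation factor carrying hypusine, was at 0.82 and 2.11 CPM against 7.18 to 13.7 and 5.73 to 8.2 (-2.54, SE 0.40, adjusted p = 0.000333). Papss2, an enzyme that makes the sulfate donor of the cell, was at 2.45 CPM against 5.91 to 12.5 in clone 12 only. In clone 14 it was at 0 with Nature siRNA and at most 0.57 CPM in the others, and its call ended without Nature clone 12 (adjusted p = 0.146). Fam114a2 was low with both Nature and Life siRNA, at 13.5 and 11.5 CPM with Nature and 25.6 and 19.7 with Life, against 65.7 to 82.5 with the other 3 (-2.10, SE 0.14, adjusted p = 1.93e-08).

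At a mean of at least 1 CPM, increases were smaller and mostly of genes at low levels. The 12 largest among called genes beyond all 4 others were AA986860, Snhg9, Phlda2, Ube2r2, Cd209c, Fkbp1a, Gm13375, Ctf1, Ypel3, E130012A19Rik, Scrn1 and Cebpd, with log2 differences from 1.20 to 1.44. Below that mean single estimates were larger, as for Krtap1-5 (2.31, mean 0.419 CPM), chosen after its values were seen. Only Ube2r2 and Fkbp1a were above 20 CPM in both Nature libraries. Ube2r2, a ubiquitin-conjugating enzyme of the CDC34 type, was at 247.8 and 183.7 CPM with Nature siRNA against 39.4 to 125.6 and 37.7 to 161.7 (1.31, SE 0.17, edgeR adjusted p = 4.78e-05). Fkbp1a, the prolyl isomerase FKBP12 that binds rapamycin, was at 609.2 and 741.9 CPM against 122.8 to 296.5 and 186.1 to 604.4 (1.26, SE 0.13, adjusted p = 6.73e-06). In clone 14 both were close to the highest of the other siRNAs, and Fkbp1a with SCR siRNA was at 694.1 CPM there. Ctf1, the cytokine cardiotrophin-1, was at 8.31 and 2.91 CPM against 2.84 to 4.38 and 1.02 to 1.47 (1.25, SE 0.22, adjusted p = 0.000965), and its call ended without Nature clone 12 (adjusted p = 0.0518). The calls of Snhg9, Phlda2, Gm13375, Ypel3, E130012A19Rik and Cebpd also ended there (adjusted p = 0.13 to 0.767). Of the 9 with an annotated coding transcript, Cebpd, a C/EBP transcription factor, held the heptamer. No heptamer stood out in the 27 genes at least 2-fold higher with a 3'UTR as GTTCATT did: the first, TGTTCTC, was in 37% of them and 16% of all.

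**Figure D4:**
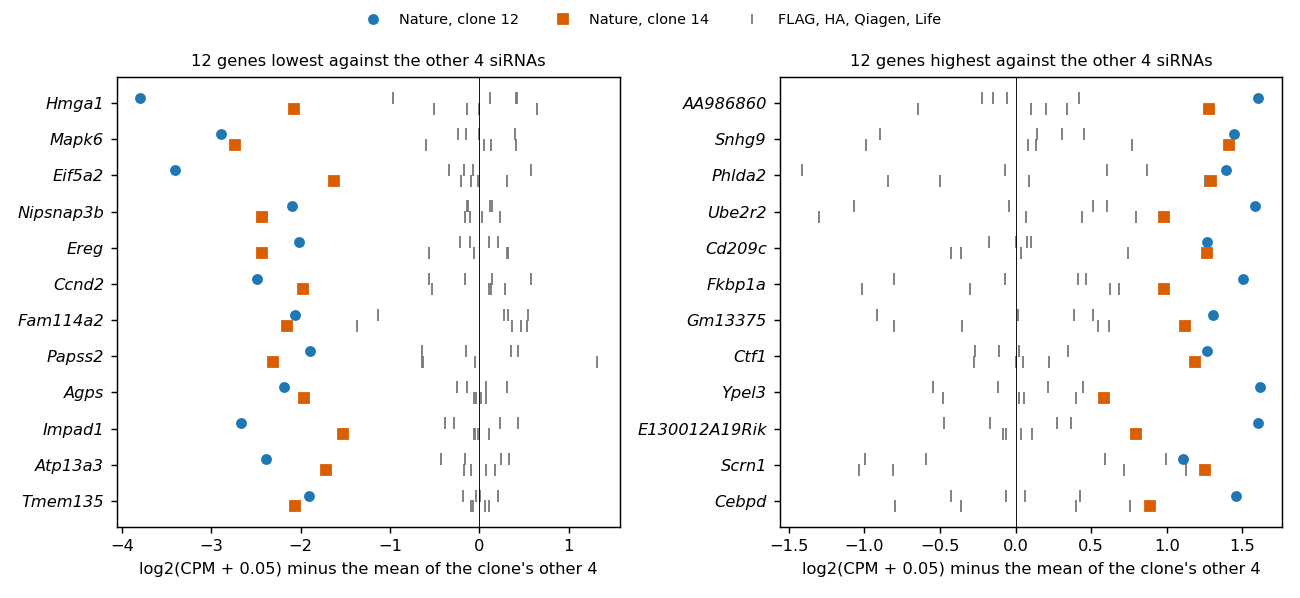
Log2(CPM + 0.05) minus the mean of the clone's other 4 siRNAs, for the 12 largest decreases (left) and increases (right), with Nature clone 12 as circles, Nature clone 14 as squares and each other siRNA as a tick. The Nature points lie at -1.5 or below for the decreases, clear of the ticks, and nearer to them for the increases. The genes were chosen as lying beyond all 4.

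Among pathway lists, the genes of cholesterol synthesis and the SREBP program were lowered most often. Of 24 tested, 13 were called lower and none higher (edgeR), 10 of them beyond all 4 others in both clones, against 5.5 and 4.59% of all genes. The list's median log2 difference was -0.40, where that of all genes was 0.02. Srebf2, the transcription factor that drives these genes, was at 66.5 and 91 CPM with Nature siRNA against 129.9 to 159.9 and 133 to 165.8 (-0.91, SE 0.11, adjusted p = 3.71e-05). SCR siRNA gave 156.1 and 148.1 CPM. The early enzyme Hmgcs1 was at 281.7 and 162.4 CPM against 426.5 to 485.5 and 244.4 to 320.9 (-0.73, SE 0.11, adjusted p = 0.000299). Sqle, the squalene epoxidase, was at 170.7 and 145.6 CPM against 214.6 to 278.8 and 226.1 to 328.6 (-0.70, SE 0.11, adjusted p = 0.000463). Within each clone the groups did not overlap for any of the 3.

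Called genes lay at early and late steps of the pathway. Nsdhl, a late demethylating enzyme, fell relative to the others (-0.86, SE 0.13, edgeR adjusted p = 0.000243), as did Dhcr7 (-0.92), Hsd17b7 (-0.86) and Lss (-0.50) of the sterol ring steps. Stard4, a sterol carrier, was at -1.13 (adjusted p = 0.00906). Insig1, which retains the SREBP complex in the endoplasmic reticulum, did not pass (-0.30, adjusted p = 0.118). The size differed by clone and by reference siRNA: the list's median was -0.16 in clone 12 and -0.60 in clone 14. Against FLAG alone it was -0.62, with 13 genes called lower where 3.17% of all genes were, and against HA alone -0.61, with 14 lower (2.83% of all). Against Qiagen alone it was -0.26, with 9 lower (8.28% of all), and against Life alone -0.32, with 9 lower (8.7% of all). Of the 13 lowered genes, Srebf2, Nsdhl and Stard4 held the heptamer in the 3'UTR. The list had been seen in earlier results of these data. Leaving out any 1 of the 8 libraries of the other siRNAs left 11 to 13 of its genes called lower. The libraries with over 2% Rn45s include Nature clone 14. Leaving them out leaves 1 Nature library, so no count is given for this list. Without the clone block 1 was called lower.

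Targets of p53 were lowered in part. The cells carry DNP53, by its name a dominant-negative p53, so the list is a set of genes and not a readout of p53 activity. Of 21 tested, 7 were called lower and 1 higher (38.1% in all, against 9.93% of all genes), and the median was -0.18. Rrm2b, a ribonucleotide reductase subunit for DNA repair, was at 8.88 and 14.7 CPM with Nature siRNA against 22 to 39.9 and 25.8 to 37.7 (-1.33, SE 0.18, edgeR adjusted p = 0.000102). Ddit4, an inhibitor of mTORC1, was at 22.9 and 15 CPM against 37 to 61.2 and 30 to 48.9 (-1.10, SE 0.25, adjusted p = 0.00864). SCR siRNA gave 22.1 CPM of Ddit4 in clone 12, so there the Nature library was at the control level and the other 4 above it. Its call ended without Nature clone 14 (adjusted p = 0.0895). Cdkn1a, which encodes the CDK inhibitor p21, went the other way, at 31.6 and 60.1 CPM against 17.3 to 29.3 and 23.9 to 50 (0.60, SE 0.11, adjusted p = 0.00201). Cdkn1a passed against FLAG (0.65, edgeR adjusted p = 0.0144) and HA (1.11, adjusted p = 0.000136). Cdkn1a did not pass against Qiagen (0.44, adjusted p = 0.0565) or Life (0.19, adjusted p = 0.404). It stood below the SCR level of 57.3 and 82.9 CPM, and its call also ended without Nature clone 14 (adjusted p = 0.0955). Mdm2 (0.01, adjusted p = 0.974) and Bax (0.24, adjusted p = 0.292) were not called.

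Cell death genes were called at shares near or above that of all genes. Of 25 pro-apoptotic genes and caspases 3 were called lower and 1 higher (16%), and of 10 anti-apoptotic genes 1 was called lower (10%), beside 9.93% of all genes. Casp9, the initiator caspase of the mitochondrial pathway, was at 8.5 and 11.1 CPM against 15 to 19.1 and 17 to 20.3 (-0.86, SE 0.12, edgeR adjusted p = 0.000128). Its partner Apaf1, the scaffold of the apoptosome, was at 30.9 and 28.2 CPM against 44.4 to 76.2 and 32.9 to 47.3 (-0.73, SE 0.14, adjusted p = 0.00233, but 0.18 without Nature clone 12). Xiap, which inhibits caspases, had a larger decrease than either, at 25.1 and 40.9 CPM against 55.5 to 122 and 71.2 to 112.7 (-1.48, SE 0.24, adjusted p = 0.000451). Xiap held 2 copies of the heptamer and Casp9 held 1, while Apaf1 held none. Fadd, the adaptor of death receptors, was higher (0.60, SE 0.13, adjusted p = 0.00669, but 0.35 without Nature clone 12).

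**Figure D5:**
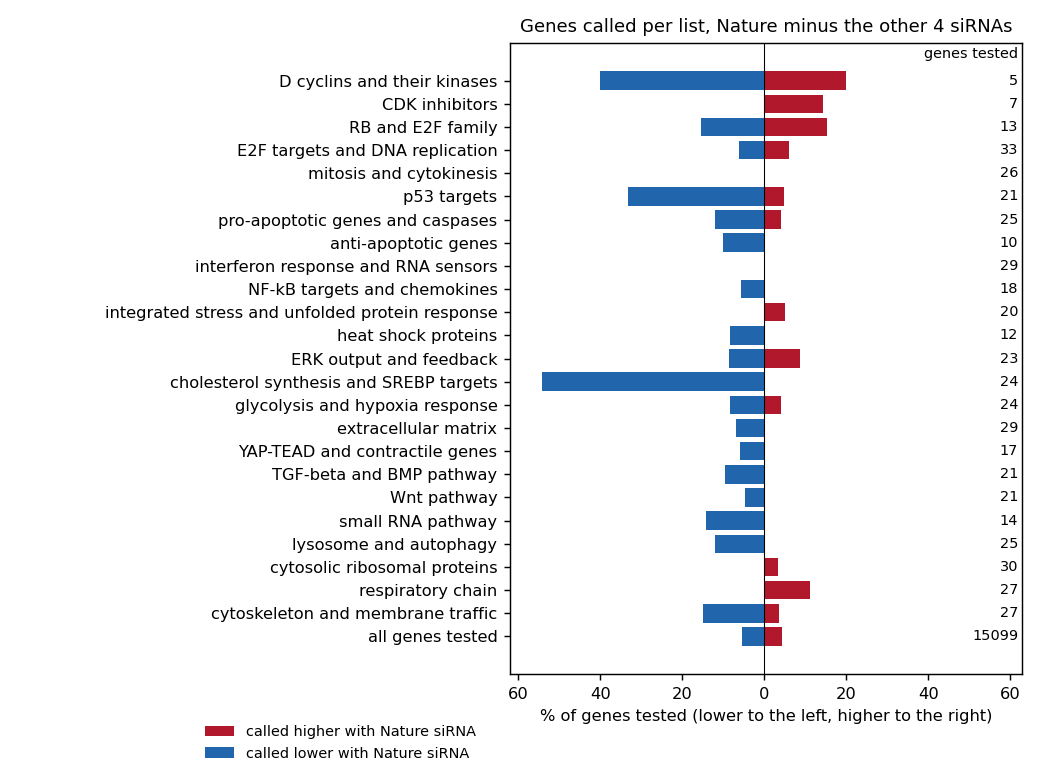
Share of each list's tested genes (%) called lower (left, blue) or higher (right, red) with Nature siRNA against the other 4, with the number tested at the right and all 15099 genes as the last row. Cholesterol genes reach 54.2% called, all lower, against 9.93% of all genes in both directions, while the mitosis and interferon lists have no called gene.

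Downstream of the D cyclins, E2F targets and replication genes were called at a share near that of all genes. Of 33 E2F targets and replication genes 2 were called higher and 2 lower (12.1%, against 9.93% of all genes). The estimates of 26 were positive and those of 7 negative, with a median of 0.15, and 10 were higher and 2 lower at an unadjusted p below 0.05. Asf1b, a histone chaperone, was at 16.7 and 22.9 CPM with Nature siRNA and at 12.1 and 18.7 with Life, against 41.4 to 90.6 with the other 3 (-1.14, SE 0.13, edgeR adjusted p = 1.68e-05). It was thus low with a pair of siRNAs and not with Nature alone. Ccne1, the gene of cyclin E1, was at 48.1 and 50.2 CPM, above Qiagen (8.14 and 9.82) but below HA in clone 14 (70 CPM), so that its difference (0.87, SE 0.11, adjusted p = 4.18e-05) rested largely on Qiagen. Ccne2, for cyclin E2, was lower (-0.49, SE 0.12, adjusted p = 0.0128, with the call lost without either Nature library and adjusted p of up to 0.0977). In the RB and E2F family Tfdp1, an E2F partner, was higher at 317.5 and 273.3 CPM against 162.6 to 271.3 and 147.2 to 249.9 (0.57, SE 0.10, adjusted p = 0.000887). Tfdp1 passed against FLAG (0.84, edgeR adjusted p = 0.000493) and Qiagen (0.92, adjusted p = 0.000112). It did not pass against HA (0.18, adjusted p = 0.668) or Life (0.35, adjusted p = 0.074). SCR siRNA gave 277.3 and 223.6 CPM, and untreated cells had 291.7 and 271.7. E2f4, a repressive E2F, was also called higher, and Tfdp2 and the pocket protein gene Rbl1 lower, which made 4 of 13 tested (30.8%). These last 3 calls were weak. Leaving out 1 library ended that of E2f4 in 4 of 10 cases (adjusted p of up to 0.372), that of Tfdp2 in 2 (up to 0.564) and that of Rbl1 in 8 (up to 0.593).

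Of all genes, 9.93% were called and 24.9% had an unadjusted p below 0.05. No gene of mitosis and cytokinesis was called by edgeR among 26 tested, with 4 at an unadjusted p below 0.05 and 1, Ccnb1, called by DESeq2. No gene of the interferon response and RNA sensors was called by edgeR among 29, with 7 at an unadjusted p below 0.05. DESeq2 called Ddx58 and Tlr3 lower and Irf1 higher there. The medians of both lists were -0.05 and -0.18.

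Genes of the small RNA pathway included the Argonaute Ago1, which binds small guide RNAs. It was at 10.6 and 19.4 CPM with Nature siRNA against 29.5 to 51.4 and 26.1 to 49.4 (-1.39, SE 0.22, edgeR adjusted p = 0.000445, but 0.0531 without Nature clone 12). Its 3'UTR held 1 match. Drosha, the nuclease that cuts primary microRNAs, was lower by less (-0.51, SE 0.10, adjusted p = 0.003, but 0.294 without Nature clone 12). With these, 2 of 14 members tested were called (14.3%, beside 9.93% of all genes). The other 12 members tested were not called, among them Ago2 (-0.11, adjusted p = 0.889) and Dicer1 (0.32, adjusted p = 0.125).

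Further named decreases came from 4 other lists, beside 9.93% of all genes called and 5.5% called lower. Lysosome and autophagy genes had 3 of 25 called, all lower (12%). Membrane traffic had 5 of 27, 4 of them lower (18.5%). The TGF-beta pathway had 2 of 21, both lower (9.52%), near the share of all genes. ERK output had 4 of 23, 2 lower and 2 higher (17.4%). The values below are those of single genes. Lamp2, a lysosomal membrane protein with 1 match, was at 88.5 and 102 CPM against 152.2 to 270.2 and 182.1 to 196.7 (-1.06, SE 0.13, edgeR adjusted p = 2.84e-05). Ulk1, the kinase that starts autophagy, was at 8.1 and 6.66 CPM against 16.3 to 24.3 and 10.2 to 23.5 (-1.15, SE 0.15, adjusted p = 5.51e-05). They were 2 of the 3 lysosome and autophagy genes called lower. Rab8a, a GTPase of vesicle traffic with 1 match, was at 46.2 and 67.9 CPM against 85.8 to 93.2 and 123.9 to 133.3, with little spread among the other 4 (-0.93, SE 0.08, adjusted p = 9.67e-07). Tgfbr3, a TGF-beta co-receptor with 1 match, was at 63.1 and 69.7 CPM against 75.6 to 134.8 and 83.1 to 134.6 (-0.64, SE 0.11, adjusted p = 0.000581). Spred3, a brake on RAS signalling to ERK, was at 12.7 and 10 CPM against 19.4 to 24.5 and 15.9 to 18.9 (-0.78, SE 0.12, adjusted p = 0.000394).

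Ribosomal and respiratory chain genes lay slightly above the other siRNAs as a group, with calls below or near the share of all genes. All 30 cytosolic ribosomal protein genes had positive differences and 24 of 27 respiratory genes did, with medians of 0.27 and 0.25. Of all 15099 genes 7886 had positive differences, with a median of 0.02. Of the former 1 was called (3.33%), beside 9.93% of all genes. Of the latter 3 were called (11.1%), namely Sdhd (0.31, SE 0.08, edgeR adjusted p = 0.0252), Uqcrc1 and Uqcrfs1. The shift was in clone 12: the medians were 0.49 and 0.45 there and 0.01 and 0.00 in clone 14. Against HA siRNA alone they were 0.00 and 0.02, against FLAG 0.24 and 0.22, against Qiagen 0.46 and 0.38, and against Life 0.39 and 0.34. Against FLAG (4.7% of all genes called) and HA (4.41%) edgeR called none of these genes. Against Qiagen it called 8 ribosomal and 4 respiratory genes higher (6.74% of all), and against Life 2 and 5 (7.98% of all).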

How the data were processed

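Counts per gene were deposited by the authors as 1 table of 24079 rows, unnormalized. The build mm10, the aligners Bowtie2 2.2.3 and TopHat2 2.0.13, the counter HTSeq 0.6.1p1, CASAVA 1.8.2 and FastQC are named, per the submitters' processing notes. The libraries were poly(A)-selected and stranded, per the labels' protocols. Neither the counting's strand setting nor its annotation is stated there, so overlapping genes may share reads. Rows lacking an ID numbered 22, held 0.0137% of a library's counts or less, and were filtered like the others.

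All 28 libraries (15 groups, 17 coefficients, 11 residual degrees of freedom) were fitted in R 4.3.3 with edgeR 4.0.16 (filterByExpr, TMM, robust quasi-likelihood) with the clone as a block. Clone numbers pair the samples because same-numbered libraries come from the same cell line. Correlations of deviations among the 20 same-clone pairs of siRNA libraries were 0.976 to 0.986 over the 1000 genes that varied most among the 10 libraries. Each deviation was taken from the mean of an siRNA over both clones, so it holds the difference between the clones. The choice of genes favours high correlations. P-values were adjusted by Benjamini-Hochberg over 15099 genes and called below 0.05. The biological coefficient of variation was 14.6%. The depth was 26558256 counts or more, and genes near 1 CPM have the least precise values. Chi-square tests between the 10 libraries found no duplicates (at least 57.4 per degree of freedom in all 45 pairs). On simulated data edgeR recovered 92 of 100 genes changed by a log2 of 1 and 100 of 100 changed by 2, with 7 false among 199 calls over 14948 genes. DESeq2 1.42.0 recovered 92 and 99, with 9 false among 200.

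"Beyond all 4" means that the Nature library exceeds, or lies below, each other siRNA library of its clone in log2 CPM (prior count 2). Named genes were Ccnd1 to Ccnd3, the 12 largest and 12 smallest differences among called genes beyond all 4 whose mean reached 1 CPM, and up to 4 called genes with the smallest p per list. Further list members were named after their values were seen. The members and lists were chosen with earlier results of these data known. Of 15098 symbols 13494 matched a GENCODE vM21 coding transcript; the transcript with the longest coding sequence was used. Gene positions are RefSeq GRCm38.p6. Alternatives were other size factors, DESeq2, non-robust dispersion, 2 filters, no block, fewer libraries, a pair of reference siRNAs, and leaving out each library. Some genes of the lists are counted but not reported by name here.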

Additional observations from a re-analysis of the deposited data

Results flagged for a closer look

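Fam114a2 in Life clone 14 was at 19.7 CPM, apart from the other 3 reference siRNAs of that clone, at 65.7 to 74.1 CPM. Its gap to the nearest of them was 0.845 of the whole range, more than Dixon's test at 95% allows for 4 values. In clone 12 the Life library was also the lowest of the reference siRNAs, at 25.6 CPM. Of 52 groups of 4 tested over 26 genes, 1 passed, and chance passes about 1 in 20.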

How the results depend on the processing

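The counts depended on the clone block and on which siRNAs formed the reference. Without the block 123 genes were called and 114 lay beyond all 4, Ccnd2 was -2.12 (adjusted p = 0.461) and Ccnd3 0.84 (adjusted p = 0.085), while Ccnd1 kept its call; the cause was not tested. Against Qiagen and Life alone 2971 genes were called. Against FLAG and HA alone 847 were called and 604 lay beyond all 4. Ccnd3 was then 0.17 (edgeR adjusted p = 0.745), and Pfkl, a glycolytic enzyme called at 0.30, turned to -0.0133. Of the 72 named genes other than the D cyclins, 29 lost their call against FLAG and HA and 42 kept it. Against Qiagen and Life 8 of them lost it. Leaving out 1 library at a time gave 423 to 1862 called genes and 867 to 1228 beyond all 4, with Ccnd1 at -1.73 to -1.34, Ccnd2 at -2.36 to -2.13 and Ccnd3 at 0.53 to 1.18. The lowest count and the lowest Ccnd3 (adjusted p = 0.218) came without Nature clone 12. The count beyond all 4 has no value where a Nature library is left out. DESeq2 called 2097 genes, relative log expression factors 1488, non-robust dispersion 1495, no filter 1318, a mean of at least 1 CPM 1686, the 10 libraries alone 1109, no SCR libraries 1246, and the libraries with at most 2% Rn45s 1307. Of the 72 other named genes, 60 lost their call without the block, 37 without Nature clone 12 and 15 without Nature clone 14. The share of genes at least 2-fold lower that hold the heptamer was 69.2 to 82.5% over the alternative fits. Each siRNA has 1 library per clone, so the depth of 1 library limits each clone's value.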
